A study of Rattus norvegicus with 71 samples.

Results

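Thoracic aorta of Brown Norway (BN) rats, an inbred strain, was compared between the ages of 15 and 6 months on Affymetrix rat arrays. The comparison rested on 11 of the series' 71 arrays, 5 labelled BN, thoracic artery and 15 months and 6 labelled BN, thoracic artery and 6 months. The series title calls this vessel the aorta. The other arrays were of BN aorta at 24 months, of aorta from Fischer344 × Brown Norway (FBN) hybrids at 6, 15 and 24 months, and of mesenteric artery of both strains at the same ages, with 6 arrays in each of these groups. No group carried a transgene, and no drug is named. All samples carry a label citing a rat model in which collateral arteries enlarge beside an occluded artery, and they leave it unsaid whether any of these vessels were taken from it. The labels do not state that each array is a separate animal, so every p-value measures the spread between arrays, which may be partly technical. The question, as far as the title gives it, was how expression in the vessel wall changes with age.

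The aortic wall holds layers of smooth muscle cells between elastic sheets, a lining of endothelium and an outer adventitia with fibroblasts, macrophages and nerves, and the rat thoracic aorta lies in brown fat. With age the wall of the aorta stiffens, its matrix and elastic sheets are remodelled and inflammatory genes tend to become more active. Among the genes described here are Inhbb, a subunit of activins, which are secreted dimers that signal through receptor kinases to SMAD proteins, and regulators that damp Toll-like receptor signalling. In whole vessels, fewer cells of a type and less RNA per cell cannot be told apart.

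The expression level is the MAS5 signal, a brightness in arbitrary units whose trimmed mean was nearly equal on all arrays (1000.3 to 1000.4). Array medians of the 11 arrays lay between 281.4 and 311.5. The smooth muscle marker Acta2 was at 17750 ± 4746 at 6 months and 16140 ± 5506 at 15 months, and Myh11 was at 33440 ± 8297 and 39570 ± 9937 (mean ± SD, n = 6 and 5 here and below). The brown adipocyte gene Ucp1, which uncouples respiration to make heat, had 84240 ± 7419 and 92200 ± 10910, and signals of different probe sets cannot be ranked against each other. Tissue mass (25.9 ± 3.51 and 24.6 ± 2.55 mg), array medians and the end to start signal ratios of Gapdh and Actb, a sign of RNA quality, gave adjusted p between 0.772 and 0.835 (exact permutation tests, two-sided, 6 measures).

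The control probe sets did differ between the ages. Poly-A spike-ins, bacterial transcripts added before labelling, had a mean log2 signal of 9.08 ± 0.21 at 6 months and of 9.64 ± 0.12 at 15 months. The lowest 15-month array (9.48) lay above the highest 6-month array (9.42). The difference of 0.56 reached the smallest p that 462 assignments of the arrays allow (exact permutation test, two-sided, p = 0.00433, adjusted p = 0.013 over 6 measures). It was seen in each spiked transcript, with 0.50 for lys, 0.44 for phe, 0.65 for thr and 0.67 for dap. The hybridisation controls, which are added after labelling, were higher too, at 13.00 ± 0.12 and 13.48 ± 0.11 (difference 0.48, exact permutation p = 0.00433, adjusted p = 0.013). Poly-A minus hybridisation signal was -3.92 ± 0.20 at 6 months and -3.84 ± 0.14 at 15 months. At 24 months both kinds of control lay at the 6-month level or below, with means of 8.91 and 12.98. Because no 15-month array had a control signal within the 6-month range, age and control signal cannot be told apart among these 11 arrays alone.

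**Figure D1:**
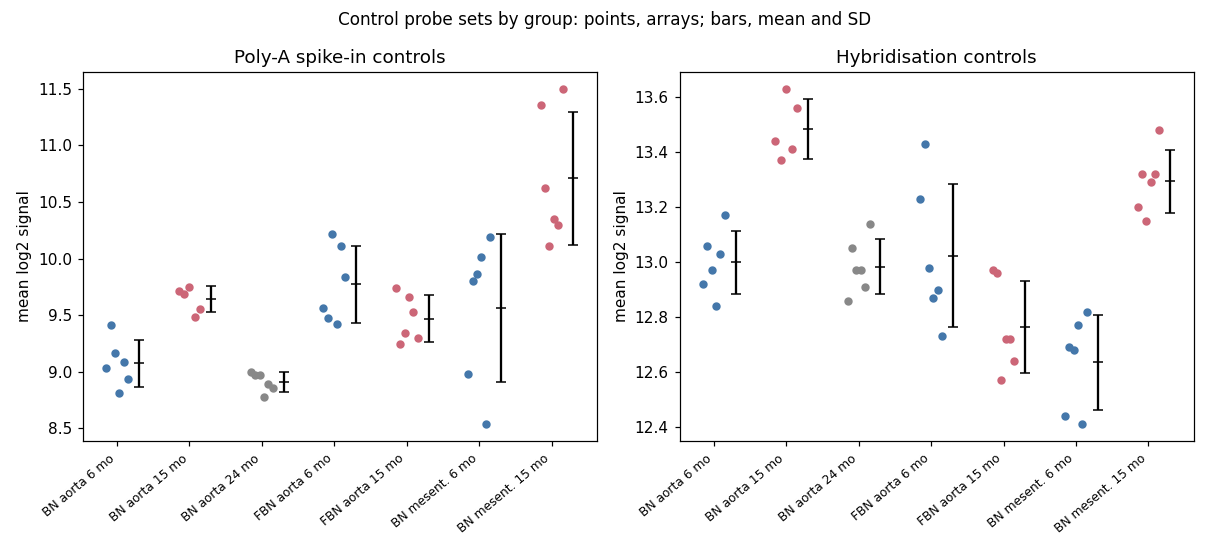
Mean log2 signal of the poly-A spike-in controls (left) and of the hybridisation controls (right), 1 point per array, for BN aorta at 6, 15 and 24 months, FBN aorta at 6 and 15 months and BN mesenteric artery at 6 and 15 months. Bars give mean and SD. The 5 BN aorta arrays of 15 months lie above all 6 arrays of 6 months on both panels, by 0.56 and 0.48 log2 in the mean.

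The stretches of 250 bases upstream of the RefSeq start (rat build GRCr8) are given for 3 genes on which the results turn. These are Inhbb, which had the largest fitted rise, Cpeb1, which rose in aorta and fell in mesenteric artery, and Peli2, which fell with the smallest p. The strand is minus for Inhbb (chr13:33089374-33089623) and Cpeb1 (chr1:144816264-144816513) and plus for Peli2 (chr15:23872734-23872983). Capitals mark the clock E-box CACGTG, searched on both strands.
Inhbb: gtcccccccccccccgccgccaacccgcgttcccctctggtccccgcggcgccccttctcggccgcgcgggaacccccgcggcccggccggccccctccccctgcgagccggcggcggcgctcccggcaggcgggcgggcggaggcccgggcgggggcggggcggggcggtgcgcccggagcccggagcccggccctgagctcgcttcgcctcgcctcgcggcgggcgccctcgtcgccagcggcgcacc
Cpeb1: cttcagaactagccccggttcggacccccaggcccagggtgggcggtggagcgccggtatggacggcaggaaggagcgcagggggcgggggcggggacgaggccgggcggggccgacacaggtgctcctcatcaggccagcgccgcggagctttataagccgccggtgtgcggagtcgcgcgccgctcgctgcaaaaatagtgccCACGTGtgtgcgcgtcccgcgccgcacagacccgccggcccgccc
Peli2: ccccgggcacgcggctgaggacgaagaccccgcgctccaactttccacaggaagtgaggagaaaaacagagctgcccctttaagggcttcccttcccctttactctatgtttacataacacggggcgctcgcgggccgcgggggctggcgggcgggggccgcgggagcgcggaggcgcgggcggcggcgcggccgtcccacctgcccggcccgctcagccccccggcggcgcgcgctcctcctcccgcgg

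The E-box occurred in this window in Cpeb1 and not in Inhbb or Peli2. It was present in 5.79% of 27457 RefSeq windows, in 3 of 25 matched genes that rose (Cpeb1, Eif4g1 and Gnai1) and in 4 of 50 matched genes that fell (Mxd4, Rab21, Riok2 and Trpm7). The antioxidant response element TGACNNNGC was in 10.2% of all windows, in 1 of 25 and in 7 of 50. The cyclic AMP response element TGACGTCA was in 1.7%, in 2 of 25 (Cdc42 and Dguok) and in 2 of 50 (Habp4 and Pja1). The SMAD box GTCTAGAC was in 0.186% of all windows and in 0 of either group, and CCAAT was in 34.3%, in 9 of 25 and in 16 of 50. A match describes these letters only.

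Between 6 and 15 months 36 probe sets rose and 75 fell of 16717 tested, or 0.664% in all, 0.215% higher and 0.449% lower (limma's moderated test, two-sided, Benjamini-Hochberg adjusted p under 0.05). The standard errors and p-values rest on a spread pooled over all 35 aorta arrays, those of FBN rats included. Median SD within groups was 0.31 to 0.43 log2 in FBN aorta and 0.23 to 0.24 in BN aorta. Where 1 gene symbol was listed, the rises belonged to 27 genes and the falls to 54. The median change was 0.64 log2 among rises and -0.79 among falls, against 0.01 over all tested probe sets. Falls were larger, with 21 of at least 1 log2 unit against 4 rises of that size. The arrays of the 2 ages did not overlap in 30 of the 36 rises and in 62 of the 75 falls, against 1.85% and 1.97% of all tested probe sets (3.82% in either direction). At an unadjusted p under 0.05 there were 777 rises and 905 falls.

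The count depended on single arrays and on the control signal. Rises numbered 20, 23, 19 and 20 without 15-month array 1, 2, 3 or 5, and 18 and 23 without 6-month array 4 or 6. Falls numbered 39 and 45 without 15-month array 4 or 5, and 45 without 6-month array 4. With the poly-A signal as a covariate 137 probe sets passed, among them 78 of the 111. When the 17 BN arrays were fitted alone, 103 of the 111 passed among 446. With the poly-A signal added to that fit, limma called 0 probe sets (1555 at an unadjusted p under 0.05). All 111 kept their direction there, with a median size of 0.74 as before and a median standard error of 0.26 against 0.15. The 111 were picked for their change in these same arrays, so their kept direction and size are no further support.

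Inhbb, the beta B subunit that pairs into activin B or inhibin B, had the largest fitted rise without an offset. Its signals at 6 months ran from 6.88 to 92.8 with a median of 16.04, and at 15 months they were 80.2, 125, 167, 104 and 130.0. One 6-month array at 92.8 lay above the lowest 15-month array and the other 5 lay below all of them. The change was 2.57 ± 0.56 log2 (± standard error here and below, adjusted p = 0.02). Its size rests on very low 6-month signals, and the gene passed the filter on low signals through mesenteric artery, as did Tnfaip8l2, Cd300a and Vps52. The call ended without 15-month array 3 or 5 or 6-month array 2, 3 or 6 (2.27 to 2.54) and with the 11 BN arrays alone (adjusted p = 0.0758), and with an offset of 64 added before the log2 the change was 1.02 (adjusted p = 0.0598).

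The other listed genes of the activin and TGF-beta system gave no call, and 0.664% of all tested probe sets were called. Id4, a relative of the listed SMAD targets Id1, Id2 and Id3, was in none of these lists and fell (-1.21, adjusted p = 0.01). Of 12 tested ligands 1 rose and 0 fell, and 8 had positive values, with a median of 0.16. Inhba, which encodes the other common activin subunit, had 1893 and 1984 at the 2 ages (0.09, adjusted p = 0.995). Bmp5, a bone morphogenetic ligand, had 99.0 ± 30.2 and 211 ± 51.9 (1.10 ± 0.35, adjusted p = 0.16). Of 10 receptors 0 passed in either direction, with a median of -0.07 and the largest size in Tgfbr3, a co-receptor of TGF-beta and inhibins (-0.54, adjusted p = 0.632). Of 13 inhibitors 0 passed (median 0.15), among them the activin trap follistatin, Fst, at 885 ± 88.7 and 1117 ± 141 (0.33, adjusted p = 0.719). Of 13 SMAD effectors and targets 0 passed (median 0.09), with Smad2, a transducer of activin signals, at 0.27 ± 0.11 (adjusted p = 0.31).

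Tnfaip8l2 and Cd300a, which restrain immune receptor signals, rose, and Peli2, which acts downstream of Toll-like receptors, fell. Tnfaip8l2, which restrains Toll-like and T cell receptor signalling, had 6-month signals of 39.6 to 215 with a median of 90.7, and 209, 242, 288, 172 and 235 at 15 months. The 2 highest 6-month arrays lay within the 15-month range. It rose by 1.195 ± 0.288 log2 (adjusted p = 0.0398), a call that ended without any 1 of the 15-month arrays or without 6-month array 1, 2, 5 or 6 (0.93 to 1.29). It also ended with the poly-A covariate (1.24, adjusted p = 0.053), with no filter (adjusted p = 0.0604) and with the 17 or the 11 BN arrays alone (adjusted p = 0.0754 and 0.171). Cd300a, an inhibitory receptor of leukocytes, had 131 to 211 with a median of 168 at 6 months and 278, 356, 309, 301 and 291 at 15 months. All 15-month arrays lay above all 6-month arrays, and the rise was 0.89 ± 0.19 (adjusted p = 0.0162).

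Peli2, which attaches ubiquitin to kinases downstream of Toll-like receptors, fell with the smallest p of all probe sets. Signals were 1052 to 1699 with a median of 1443 at 6 months, and 594, 516, 288, 573 and 526 at 15 months. All 15-month arrays lay far below the lowest 6-month array. The fall was -1.55 ± 0.17 log2, or 2.92-fold (adjusted p = 4.34e-06). A second Peli2 probe set had 2076 and 1813 (-0.19, adjusted p = 0.823). In the Toll-like receptor and NF-kappaB list 1 of 20 genes rose (Tnfaip8l2) and 0 fell by their brightest probe set, with a median of 0.01, and the relative Peli1 was at -0.19 (adjusted p = 0.411).

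Cpeb1 and Eif4g1 rose, and Sf3b1 and Slbp fell. Cpeb1, which binds messenger RNA to control its translation, had 125 to 282 with a median of 216 at 6 months and 484, 449, 385, 425 and 292 at 15 months. The ages did not overlap. It rose by 1.05 ± 0.24 (adjusted p = 0.0283), and the call ended without 15-month array 1, 2, 3 or 4 or 6-month array 3 or 4 (0.92 to 1.06), and with the poly-A covariate (0.94, adjusted p = 0.0842). Eif4g1, the scaffold of the cap-binding complex, had 138 to 277 with a median of 214 and then 615, 548, 493, 197 and 309. One 15-month array lay inside the 6-month range. Its rise of 0.98 ± 0.24 had an adjusted p of 0.0482, and the call ended without 9 of the 11 arrays, all but 15-month array 4 and 6-month array 5 (0.82 to 1.07). It ended as well with an offset of 64, with no filter and with the 17 or the 11 BN arrays alone (adjusted p = 0.0512 to 0.114). Another Eif4g1 probe set had 3624 and 4270 (0.24, adjusted p = 0.271).

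Sf3b1, a core part of the spliceosome, fell by one of its probe sets. That set had 300.2 to 619 with a median of 517 at 6 months and 317, 206, 160, 146 and 193 at 15 months, so a single 15-month array reached the 6-month range. The fall was -1.32 ± 0.28 (adjusted p = 0.0193), a call that ended without 15-month array 3 or 4 (-1.24 and -1.21). The other 2 Sf3b1 probe sets had -0.15 each (adjusted p = 0.921 and 0.448). Slbp, a binding protein of the histone mRNA stem-loop, fell from 1187 ± 213 to 662 ± 91.2 (-0.83 ± 0.16, adjusted p = 0.005). Of 25 genes of messenger RNA tail control 1 rose (Cpeb1) and 0 fell (median -0.04), and the deadenylase Cnot7 had -0.30 (adjusted p = 0.12). Of 27 splicing factors 0 passed by their brightest probe set (median -0.09), with Srsf11 at -0.33 (adjusted p = 0.0782).

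The kinase gene Plk3 rose, and Map3k20 and Dyrk2 fell, the latter pair by 1 probe set each. Plk3, a polo-like kinase, had 115 to 301 with a median of 259 at 6 months and 465, 463, 422, 362 and 552 at 15 months, with no overlap. It rose by 0.98 ± 0.22 (adjusted p = 0.0255), and the call ended without 15-month array 1, 2 or 5 or 6-month array 3 or 4 (0.78 to 0.96), with the 11 BN arrays alone (adjusted p = 0.0504) and with the hybridisation control as a covariate (0.70, adjusted p = 0.0535). Map3k20, a kinase that responds to stalled ribosomes, had 407 to 967 with a median of 622 and then 231, 383, 217, 64.2 and 97.5. The 15-month arrays spread widely but all lay below the 6-month arrays. The fall of -1.93 ± 0.38 (3.81-fold, adjusted p = 0.00764) was in 1 probe set, while another, at 8067 and 9087, had 0.16 and the other had 0.05 (adjusted p = 0.98 and 0.994). The call ended with the hybridisation control as a covariate (-0.99, adjusted p = 0.0745).

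Dyrk2, a kinase that marks proteins for degradation, had 639 to 929 with a median of 827 at 6 months and 423, 343, 284, 237 and 201 at 15 months, with no overlap. It fell by -1.47 ± 0.22 (2.77-fold, adjusted p = 0.000205). Its 3 other probe sets had -0.26, -0.40 and -0.50 (adjusted p = 0.82, 0.446 and 0.741). Of 16 genes in the stress-activated kinase list 0 passed by their brightest probe set, with a median of 0.10.

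Ssr3 and Nutf2 rose, and Vps52, Nedd4 and Cav2 fell by at least 1 probe set each. In the lists nearest to their roles 0 of 24 vesicle tethering genes, 0 of 19 ubiquitin and proteasome genes and 0 of 21 autophagy and lysosome genes passed by their brightest probe set, with medians of -0.01, 0.00 and 0.07. Of all tested probe sets 0.664% passed. These lists did not hold every such gene. The proteasome subunits Psmc6 (-0.62, adjusted p = 0.00449) and Sem1 (-0.36, adjusted p = 0.0149) fell and were not in them, and neither was Nedd4. Ssr3, a subunit of the complex that helps proteins enter the endoplasmic reticulum, had 285 to 510 with a median of 441 at 6 months and 638, 828, 655, 977 and 880 at 15 months. The ages did not overlap, and the rise was 0.95 ± 0.21 (adjusted p = 0.0194), ending without 15-month array 4 or 5 or 6-month array 4 (0.87 to 0.91) and with the hybridisation control as a covariate (0.62, adjusted p = 0.0614). The other 2 Ssr3 probe sets had 0.26 and 0.25 (adjusted p = 0.413 and 0.284). Ssr2, another subunit of that complex, fell from 3494 ± 260 to 2376 ± 145 (-0.56, adjusted p = 0.00068).

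Nutf2, which carries the small GTPase Ran into the nucleus, had the smallest p of the rises with a gene name. It had 1538 to 1945 with a median of 1781 at 6 months and 3067, 3126, 3093, 2897 and 2854 at 15 months. The groups lay well apart, and the rise was 0.78 ± 0.11 (1.71-fold, adjusted p = 0.00014). A second Nutf2 probe set had 1652 and 1691 (0.04, adjusted p = 0.989).

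Vps52, a subunit of a complex that tethers vesicles at the Golgi, had 73.4 to 255 with a median of 116 at 6 months and 38.1, 33.2, 41.5, 70.9 and 27.4 at 15 months. No array of the later age reached the 6-month range, though both sets of signals were low. The fall was -1.65 ± 0.37 (adjusted p = 0.0218), and the call ended without 15-month array 1, 2 or 5 or 6-month array 3 or 4 (-1.63 to -1.45), and with an offset of 64 (-0.88, adjusted p = 0.0866). It also ended with the 17 or the 11 BN arrays alone (adjusted p = 0.0731 and 0.0839) and with the hybridisation control as a covariate (-1.10, adjusted p = 0.0631). Another Vps52 probe set had 393 and 296 (-0.45, adjusted p = 0.42). Nedd4, a ubiquitin ligase for membrane proteins, had 2758 to 4640 with a median of 3875 and then 1532, 1697, 1221, 1359 and 1416, with no overlap. It fell by -1.34 ± 0.23 (2.53-fold, adjusted p = 0.00158), while its 5 other probe sets had -0.22 to 0.15.

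Cav2, which coats the membrane pits called caveolae together with caveolin 1, was the gene with more than 1 called probe set. One called set went from 15060 ± 1484 to 6913 ± 1149 (-1.13, adjusted p = 1.2e-05) and the other from 10810 ± 1575 to 5320 ± 1020 (-1.03, adjusted p = 0.00311). The other 2 went from 1686 to 1039 (-0.70, adjusted p = 0.0606) and from 3646 to 3118 (-0.23, adjusted p = 0.927).

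Transcriptional regulators were found in both directions. Id4, which binds other helix-loop-helix proteins and keeps them off DNA, had 576 to 1120 with a median of 754 at 6 months and 350, 299, 420, 248 and 340 at 15 months. The ages did not overlap and the fall was -1.21 ± 0.24 (adjusted p = 0.01). All 3 other Id4 probe sets were lower as well, at -0.42, -0.52 and -0.61, without passing (adjusted p = 0.529, 0.446 and 0.31). Its relatives Id1, Id2 and Id3 had -0.01, -0.02 and 0.09.

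Zbtb20, a zinc finger repressor, had 348 to 808 with a median of 586 and then 174, 310, 201, 368 and 180. One 15-month array lay within the 6-month range. The fall of -1.29 ± 0.29 (adjusted p = 0.0255) ended as a call without 15-month array 1, 3 or 5 or 6-month array 3, 4 or 6 (-1.28 to -1.18) and with the poly-A covariate (-0.96, adjusted p = 0.103). Of its 5 other probe sets 1 had 0.48 and 4 had -0.24 to -0.07. Nfe2l1, which drives proteasome and antioxidant genes, rose from 2285 ± 161 to 3711 ± 457 (0.69 ± 0.10, adjusted p = 0.000186). Further Nfe2l1 probe sets had 0.29 and 0.03 (adjusted p = 0.721 and 0.996). Txnrd1, thioredoxin reductase, rose from 1778 ± 85.8 to 2311 ± 56.2 (0.38, adjusted p = 0.0255). Another Txnrd1 probe set had 0.19 (adjusted p = 0.873). Nfe2l1 and Txnrd1 were the 2 of 19 antioxidant genes that passed (0 fell, median 0.04), against 0.664% of all tested probe sets. Gpx1, a peroxidase, had 0.49 (adjusted p = 0.155). The Txnrd1 call ended without 15-month array 2, 3, 4 or 5 or 6-month array 3 or 4 (0.37 to 0.39), with the poly-A covariate (0.36, adjusted p = 0.0602), with no filter (adjusted p = 0.0582) and with all 71 arrays in 1 fit (adjusted p = 0.0531).

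**Figure D2:**
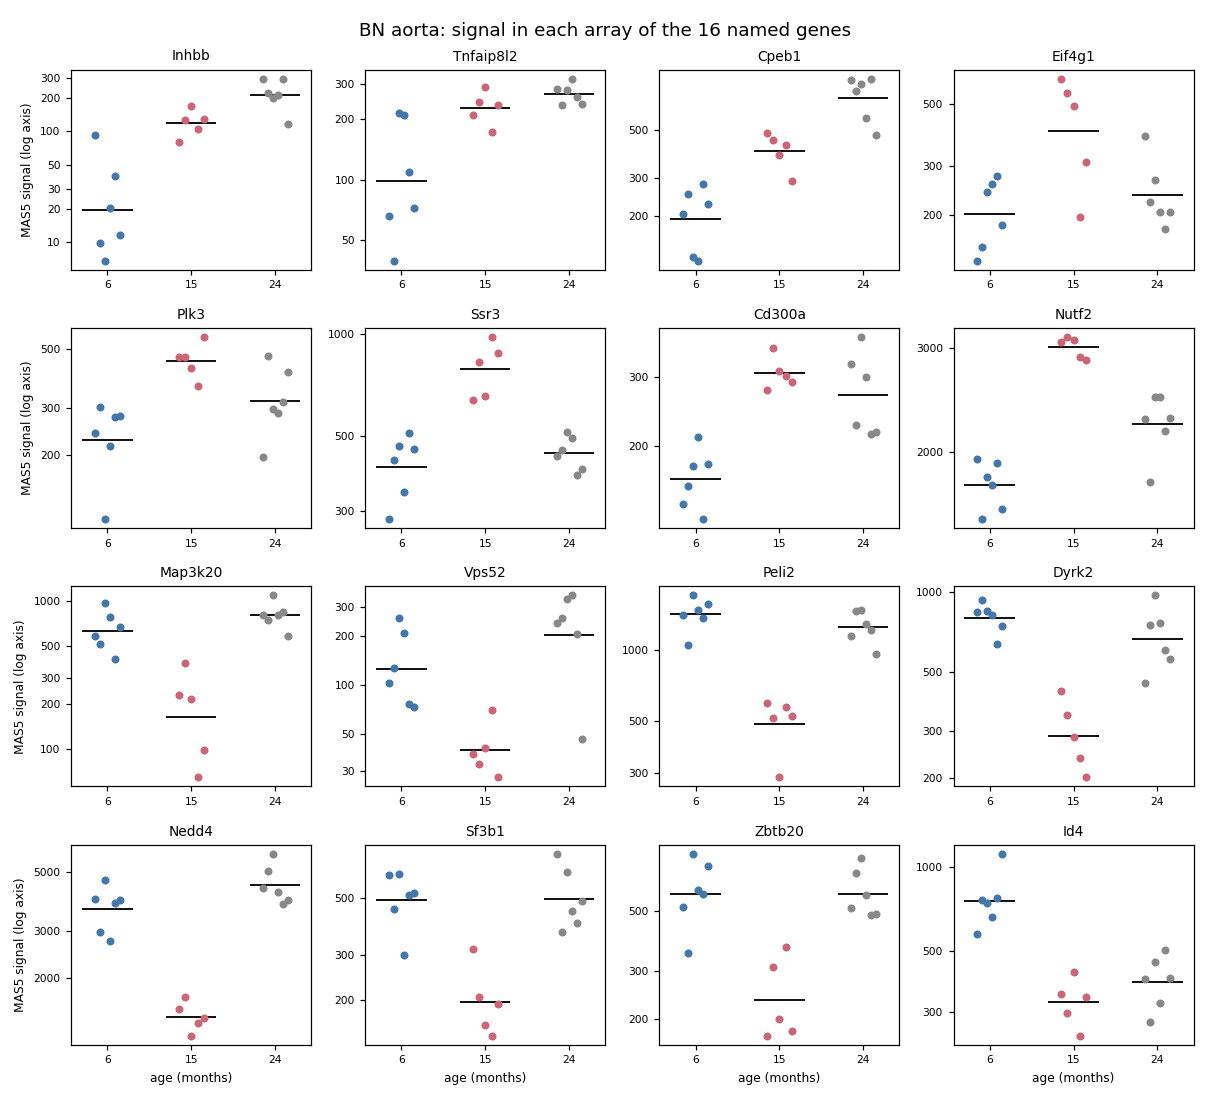
MAS5 signal (log axis, range differs between panels) of 16 genes in each BN aorta array at 6, 15 and 24 months of age. Points are arrays and lines the geometric means. Nutf2, Peli2, Dyrk2 and Nedd4 show 15-month arrays apart from both other ages, while Inhbb and Cpeb1 are highest at 24 months and Id4 has similar levels at 15 and 24 months.

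Among the other rises were the small GTPase Cdc42 (0.38), the mediator subunit Med1 (0.59), the Wnt effector Tcf7l2 (0.57), the G-protein subunit Gnai1 (0.63), the choline transporter Slc44a1 (0.63), phospholipase Plcg1 (0.47) and the alkaline ceramidase Acer2 (0.72). Further probe sets of these genes had -0.02 for Cdc42 and -0.15 for Tcf7l2, none passing. They had 0.29 for Med1, 0.30 and 0.09 for Slc44a1 and 0.30 for Acer2, again without passing. Among the other falls, by 1 probe set each, were the Notch effector Rbpj (-0.60), the lipid kinase Pik3ca (-0.57) and the phosphoinositide kinase Pip4k2a (-0.68). Their further probe sets had -0.04 and 0.14 for Rbpj, -0.32 to 0.02 for Pik3ca and 0.08 for Pip4k2a, none passing. The vesicle GTPases Rab21 (-0.62) and Rab11a (-0.43), the ion channel kinase Trpm7 (-0.49), Krit1 (-0.52), which holds endothelial junctions together, the cullin Cul4a (-0.79) and the proteasome subunits Psmc6 (-0.62) and Sem1 (-0.36) fell as well. Further probe sets had -0.14 for Rab11a, -0.18 for Trpm7 and -0.21 and -0.23 for Psmc6, none passing. Many of these calls depended on single arrays. Gnai1 (adjusted p = 0.0468), Plcg1, Acer2, Slc44a1, Pik3ca and Rab11a lost theirs without 6-month array 4. Tcf7l2, Rbpj, Pip4k2a, Cul4a and Sem1 lost theirs without at least 1 other array. Cdc42, Med1, Rab21, Trpm7, Krit1 and Psmc6 kept theirs with each array left out. A probe set listed under Myh1, a skeletal muscle myosin, fell from 6777 ± 1641 to 2996 ± 436 (-1.15, adjusted p = 0.0193). Its 4 other probe sets had signals of 20350 to 36740 at 6 months and changes of 0.03 to 0.39, none passing. The skeletal myosins Myh2 and Myh4 were below the signal filter, so whether these probe sets measure Myh1 is in doubt.

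Of 81 further tested probe sets of the called genes, 56 moved the same way, 12 of them at an unadjusted p under 0.05, and 2 moved the other way at that level. The largest fall of all, from 559 ± 164 to 92.5 ± 55.8 (-2.79, adjusted p = 0.00184), was in a probe set without a listed gene. Another such probe set had the next largest fitted rise after Inhbb, from 38.5 ± 25.6 to 176 ± 39.7 (2.41, adjusted p = 0.00158). Just inside the threshold lay Zfp758 (-0.74, adjusted p = 0.047) and Pcmtd2 (-0.53, 0.0486), and just outside it Slc7a10, an amino acid transporter (1.16, adjusted p = 0.0507).

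No list of cell type markers had a called member by its brightest probe set, and 0.664% of all tested probe sets were called. Of 18 smooth muscle genes 12 had positive values, with a median of 0.05 and summed signals of 180200 to 351400 at 6 months and 213800 to 367900 at 15 months. Of 15 endothelial genes 9 were positive (median 0.01), and Vwf was at 0.28 (adjusted p = 0.865). Of 13 brown adipocyte genes 4 were positive, with a median of -0.175 and Ebf2, a factor of brown fat identity, at -1.17 (adjusted p = 0.131). Their summed signal ran from 273900 to 358100 and from 293000 to 387900, and 13 white and general adipocyte genes had a median of 0.09.

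All 8 tested striated muscle genes were positive by their brightest probe set and 0 passed, with a median of 0.47. A called Myh1 probe set fell (-1.15, adjusted p = 0.0193), and whether the Myh1 probe sets measure that gene is in doubt. Tnnc1, a troponin of slow and heart muscle, had 193 ± 63.2 and 458 ± 352 (1.09, adjusted p = 0.543), a wide spread at 15 months. All 3 tested erythrocyte genes were positive and 0 passed, with a median of 0.50 and summed signals of 8998 to 34060 and 14490 to 53900. Of 8 nerve and Schwann cell genes 3 were positive and 0 passed (median -0.11). Their summed signal did not overlap between the ages, at 31620 to 35430 and 37410 to 43100. A large part of that sum was S100b, a calcium-binding protein that fat cells also make, at 15900 ± 1533 and 22950 ± 2053 (0.53, adjusted p = 0.758). The part of these cell types in the called changes was not tested.

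Of 15 macrophage genes 14 were positive and 0 passed, with a median of 0.30 against 0.01 over all probe sets. Gpnmb, a glycoprotein of lipid-laden macrophages, went from 717 ± 131 to 1319 ± 359 (0.86, adjusted p = 0.156) and the scavenger receptor Cd163 from 742 ± 184 to 1228 ± 283 (0.73, adjusted p = 0.285). Summed macrophage signal was 19760 to 31180 at 6 months and 23600 to 39740 at 15 months, so the ages overlapped. The lymphocyte genes Cd3d, Cd3e, Cd8a and Cd4 were below the signal filter, as were all 8 measured neutrophil genes. The part of macrophage RNA in the rises of the leukocyte genes Cd300a and Tnfaip8l2 was not tested.

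**Figure D3:**
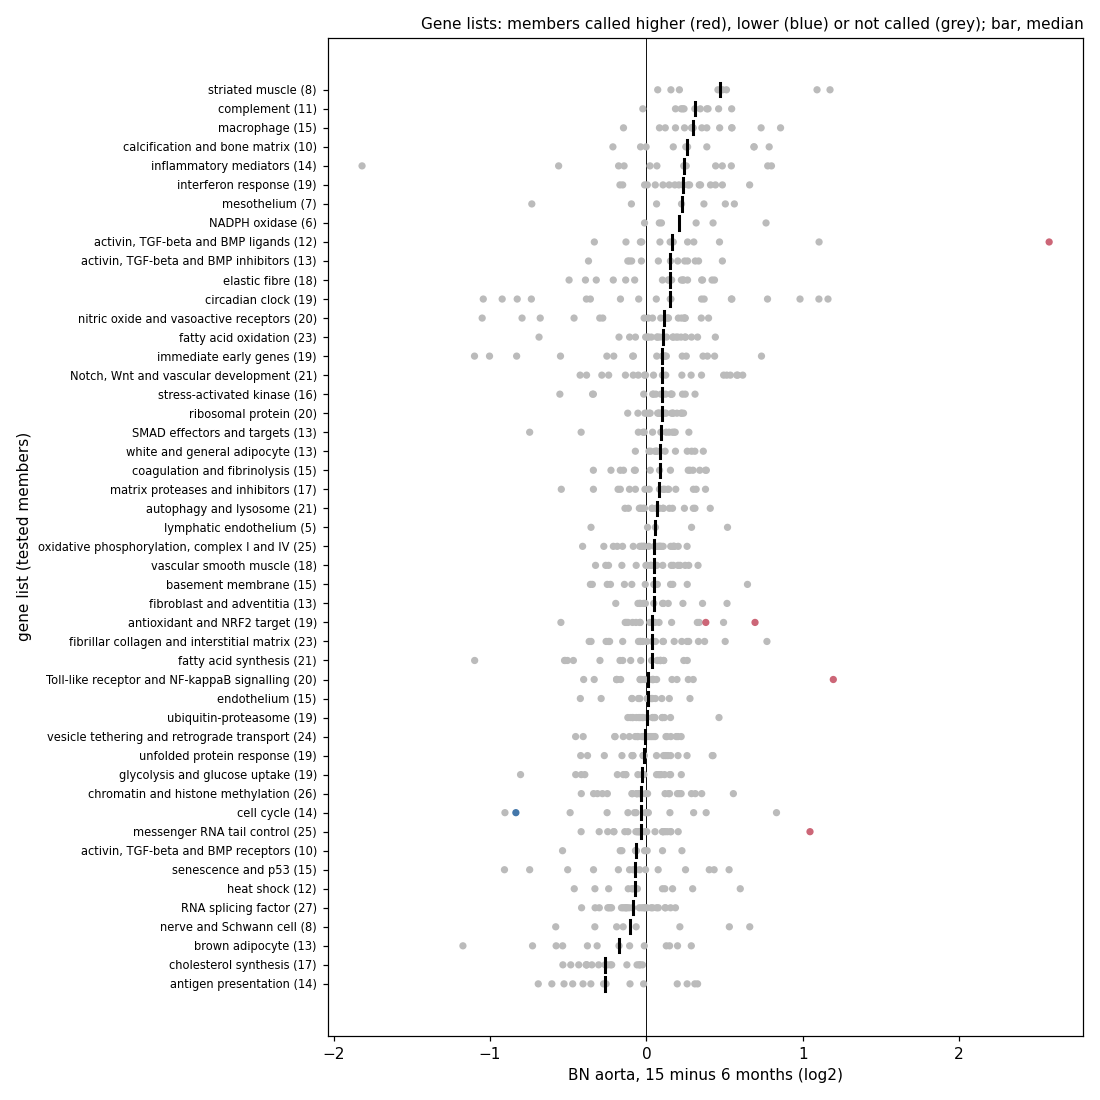
BN aorta change from 6 to 15 months (log2) of each member of the gene lists with at least 4 tested members, the number in brackets. Each point is a gene by its brightest probe set, red where called higher, blue where called lower and grey otherwise, and bars mark medians. The called members are Inhbb, Tnfaip8l2, Nfe2l1, Txnrd1, Cpeb1 and Slbp, and no list shows more than 2.

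Functional lists gave few calls. Of all tested probe sets 0.664% passed, so 0 calls in these and the other lists of such lengths lie near that share. Of 19 interferon-response genes 16 were positive and 0 passed (median 0.24), and the regulator Irf7 had 0.49 ± 0.19 (adjusted p = 0.297). Of 11 complement genes 10 were positive and 0 passed (median 0.31). All 17 cholesterol synthesis genes had negative values and 0 passed (median -0.26), with Mvk, which makes phosphomevalonate, at -0.38 (adjusted p = 0.413). Of 14 antigen presentation genes 4 were positive and 0 passed (median -0.27), with the class II gene RT1-Bb at -0.69 (adjusted p = 0.16). Of 23 collagen and matrix genes, 18 elastic fibre genes and 10 calcification genes 0 passed, with medians of 0.04, 0.15 and 0.26.

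Clock genes had wide values and no call. Of 19 members 11 were positive and 0 passed, with the repressor Nfil3 at -0.83 (adjusted p = 0.132), Nr1d2 at 0.77 (adjusted p = 0.232) and Npas2 at -1.04 (adjusted p = 0.293). Of 14 cell cycle genes Slbp fell and 0 rose. Of 25 respiratory chain genes, 20 ribosomal protein genes and 19 genes of the unfolded protein response 0 passed, with medians of 0.05, 0.10 and -0.01.

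At 24 months, 20 of the 36 probe sets that had risen and 37 of the 75 that had fallen had means nearer to the 6-month than to the 15-month mean. The nearness uses the 6-month and 15-month arrays by which the probe sets were picked. Its share over all tested probe sets was not worked out. The comparison of 24 with 6 months shares the 6-month arrays, so values are given side by side only. Against 6 months, 112 probe sets (0.67%) were higher at 24 months and 98 (0.586%) lower, and these held 10 of the 36 and 19 of the 75. Cpeb1 stood at 407 ± 73.6 at 15 months and 724 ± 164 at 24 months, and Inhbb at 121 ± 32.2 and 223 ± 67.0. Id4 was at 331 ± 63.8 and 393 ± 83.7, near its 15-month level. Peli2 stood at 499 ± 122 at 15 months and 1257 ± 198 at 24 months, Nedd4 at 1445 ± 180 and 4524 ± 772, and Dyrk2 at 298 ± 87.9 and 685 ± 183, the 24-month means lying nearer to those at 6 months. Nutf2 had 2241 ± 258 at 24 months, between the other ages. Both kinds of control signal were highest at 15 months.

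In FBN aorta, which shares no arrays with this comparison, 1 probe set passed between 6 and 15 months (0.00598%), that of Nnat, an imprinted membrane protein gene (1.77, adjusted p = 0.0165, against 0.91 and 0.205 in BN), and 1142 did so at an unadjusted p under 0.05 (6.83%). That count was 0 without FBN 6-month array 2, 3, 5 or 6 or 15-month array 1 or 5, 10 without 6-month array 4 and 4 without 15-month array 2. Of the BN rises 25 of 36 were positive in FBN aorta, where 57.2% of all tested probe sets were positive, and 6 did so at an unadjusted p under 0.05. Of the BN falls 26 of 75 were negative and 0 did so at that level. In the opposite direction 5 of the BN calls passed that level in FBN aorta, all of them BN falls, among them Rbpj (0.28), Mxd4 (0.32) and Ccnj (0.29). Cpeb1 had 230 ± 26.9 and 469 ± 171 in FBN aorta (0.95 ± 0.23, adjusted p = 0.223) and Inhbb 99.3 ± 67.9 and 184 ± 66.8 (1.29 ± 0.54, adjusted p = 0.652). Gnai1 (0.54) and Mmd (0.42) were positive too. Peli2 had 1039 ± 251 and 1168 ± 178 there (0.19, adjusted p = 0.887). Median SD within groups was 0.23 log2 at both ages in BN aorta and 0.43 and 0.35 in FBN aorta. The poly-A controls went down with age in FBN aorta, by 0.30.

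The difference between the strains in the 15 minus 6 month change was tested directly and was called for 22 probe sets (0.132%), of which 18 were BN falls and 3 were BN rises, the other being Cebpz (0.57, adjusted p = 0.0442). Peli2 differed by 1.73 ± 0.24 (FBN minus BN, adjusted p = 0.000414), and Dyrk2 by 1.72 (adjusted p = 0.00621). Nedd4 differed by 1.71 (adjusted p = 0.00993), Map3k20 by 2.48 (adjusted p = 0.0397), and Cav2 by 1.21 and 1.17 (adjusted p = 0.0016 and 0.0494). Nfe2l1 (-0.87, adjusted p = 0.00186) and Nutf2 (-0.86, adjusted p = 0.00621) rose in BN and had -0.18 and -0.08 in FBN aorta. For Inhbb the difference was -1.28 ± 0.78 (adjusted p = 0.803) and for Cpeb1 -0.10 ± 0.34 (adjusted p = 1). The count was 13, 10 and 11 without BN 15-month array 1, 2 or 4, and 11, 13 and 12 without BN 6-month array 3, 5 or 6. It was 12 and 35 without FBN 6-month array 2 or 4, and 13, 11 and 13 without FBN 15-month array 4, 5 or 6. The controls moved in opposite directions with age in the 2 strains, and their part in these differences was not tested apart from the covariate fits.

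In BN mesenteric artery, also without shared arrays, 583 probe sets passed between 6 and 15 months (3.49%, 1.72% higher and 1.77% lower). Of the aortic falls 66 of 75 were negative there and 23 passed. Of the rises 25 of 36 were positive and 11 passed, and 46.1% of all tested probe sets were positive. The 34 shared calls and 1 opposite one made up 31.5% of the aortic calls and 6% of the mesenteric ones. Nutf2 had 1375 ± 160 and 2399 ± 250 in mesenteric artery (0.81 ± 0.11, adjusted p = 4.55e-05), as large as in aorta, and Nfe2l1 had 0.73 (adjusted p = 0.000354). Slc44a1 (0.87), Pogz (0.56) and Eif4g1 (0.63) rose in both vessels. Cav2 (-0.60 and -0.78), Larp4b (-0.72), Cul4a (-0.80), Trpm7 (-0.62) and Krit1 (-0.55) fell in both. Another Larp4b probe set had 0.21 in BN aorta (adjusted p = 0.644), and another Pogz probe set had 0.26 there (adjusted p = 0.547). Cpeb1 was the opposite call, falling from 720 ± 133 to 428 ± 144 (-0.80 ± 0.22, adjusted p = 0.0369). Inhbb was brighter there, at 557 ± 126 and 439 ± 126 (-0.37, adjusted p = 0.593), and Peli2 had -0.46 (adjusted p = 0.174).

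Both kinds of control were higher at 15 than at 6 months in BN mesenteric artery too, by 1.14 for poly-A and 0.66 for hybridisation. The end to start log2 ratio of Gapdh was 0.59 ± 0.22 at 6 months and 1.00 ± 0.10 at 15 months there, and that of Actb 1.65 ± 0.37 and 2.23 ± 0.27. Tissue mass was 6.6 to 11 mg at 6 months and 12.1 to 18.5 mg at 15 months, with no overlap. The part of RNA quality and mass in the mesenteric changes was not tested. With the poly-A covariate 435 mesenteric probe sets passed. The count was 315, 278 and 384 without 15-month array 1, 5 or 6, and 376, 232 and 382 without 6-month array 2, 5 or 6. The 24-month mesenteric arrays entered through the shared spread and through the filter on low signals. Without them in the fit, and with the same filter, 374 probe sets passed, including 27 of the aortic calls in the same direction.

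**Figure D4:**
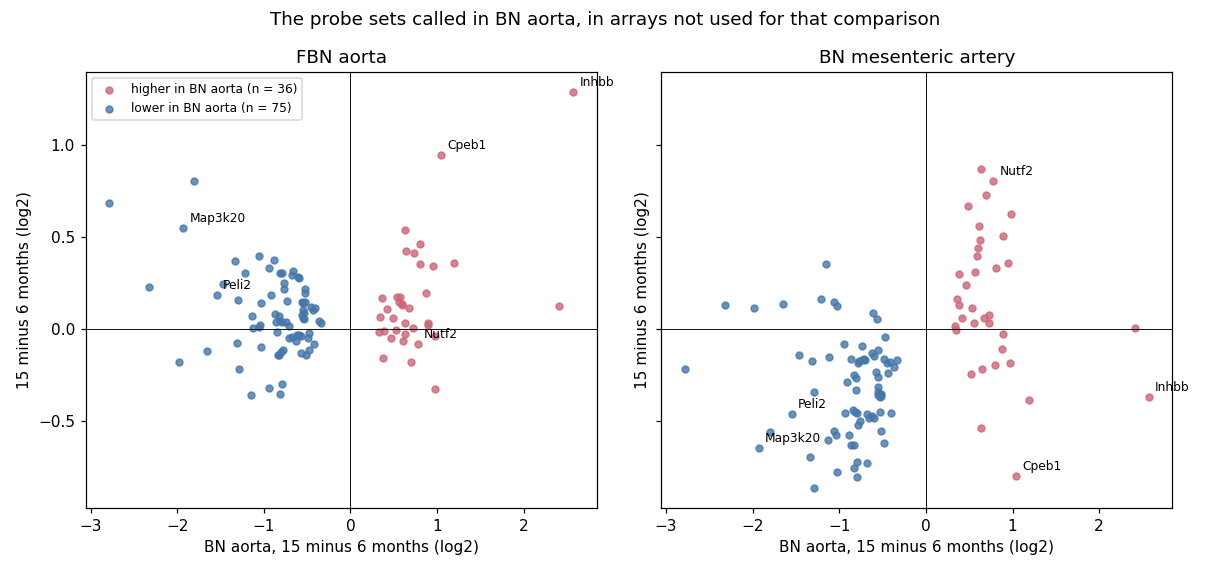
Change from 6 to 15 months (log2) of the 36 probe sets called higher and the 75 called lower in BN aorta, plotted against the change of the same probe sets in FBN aorta (left) and BN mesenteric artery (right), 1 point per probe set. In FBN aorta 26 of the 75 aortic falls are negative, and in BN mesenteric artery 66 of 75 are.

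The 5 genes whose log2 levels followed those of Inhbb most closely over the 17 BN aorta arrays of the 3 ages were Sema3g (Pearson r = 0.917), Dsp (0.9), Sncg (0.875), Slc7a10 (0.871) and Slfn5 (0.863). This is a description over arrays that share the 3 age groups.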

How the data were processed

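Total RNA of 71 artery samples was measured on arrays, per the labels with a fibrous tissue column kit and biotin labelling. The deposited values are intensity, the linear MAS5 signal of 31099 probe sets, made by the authors with GCOS and MAS5 per the submitters' processing notes (versions not given in the sources used here). Scan dates and detection calls were not used here.

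The log2 of the signal was used as it stood. Leaving aside 57 control probe sets, 16717 were tested, those with a mean log2 signal over the aorta or the mesenteric arrays of at least 8.19 (signal 292.4), the median over probe sets. A gene can pass through either vessel, as Inhbb did with low aortic signals. Gene symbols were those of the array's annotation, and 12889 tested probe sets had 1. The means of 6 groups were fitted to the 35 aorta arrays, and likewise to the 36 mesenteric arrays, with limma 3.58.1 (R 4.3.3, statmod 1.5.0), eBayes with trend and robust, and Benjamini-Hochberg adjustment over all tested probe sets at 0.05. Genes with values by array were the 8 called genes with the largest rise and the 8 with the largest fall in log2. Cav2, Ssr2, Myh1, Nnat and the genes listed as other rises and falls were singled out after their values were seen. In lists a gene enters by its brightest probe set, called members are named, and otherwise members with the smallest p. Ucp1, Acta2, Myh11, Vwf, Inhba, Peli1 and the Id genes were named for their role. Members and lists were chosen with earlier results of these data known. In simulated data with 200 changed probe sets of 16717, 62% of 1 log2 changes and 98% of 2 log2 changes were recovered in this comparison, and 4.19% of calls were false. The simulated noise was independent between probe sets and held no shift shared by the arrays of an age. The real arrays differed in control signal between the ages, so these shares may not describe the calls made here. The number of arrays limits the precision.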

Additional observations from a re-analysis of the deposited data

Results flagged for a closer look

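Among 44 groups of values checked, 3 held an array far from the others, and chance alone gives about 1 in 20. The 6-month array 3 had a Plk3 signal of 115.3, below the other 5, and the 15-month array 3 a Peli2 signal of 288.4, below the other 4. The 15-month array 1 came from a tissue mass of 20.1 mg, the smallest of its group.

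The change from 6 to 15 months differed between FBN and BN aorta by the direct test in 22 probe sets. FBN minus BN, the values were -0.87 for Nfe2l1, -0.858 for Nutf2, 1.17 and 1.21 for the 2 Cav2 probe sets, 1.71 for Nedd4, 1.72 for Dyrk2, 1.73 for Peli2 and 2.48 for Map3k20.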

How the results depend on the processing

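No paired analysis was possible because the labels give no replicate numbers, and the numbers used here follow the order of the samples. All 21 single gene values kept their direction under every alternative that held them. They were picked for their change in these same arrays, so a kept direction is no further support. The stricter filter held 6 of the 21, and the filter on aorta arrays alone left out Inhbb, Tnfaip8l2, Cd300a and Vps52. All 21 lost their call in at least 1, each of them in the fit of the 17 BN arrays with the poly-A covariate, which called 0 rises and 0 falls. Cd300a, Nutf2, Peli2, Dyrk2, Nedd4, Id4, both Cav2 probe sets, Slbp and Nfe2l1 lost it there alone among the alternatives that held them.

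Rises and falls numbered 23 and 30 with a stricter filter, 320 and 388 with array weights, 188 and 258 with the 17 BN arrays alone, 120 and 200 with the 11 arrays alone, and 92 and 177 with all 71 arrays in 1 fit. They numbered 84 and 149 with tissue mass as a covariate, 245 and 298 with the brown adipocyte score, and 4176 and 3560 with the hybridisation control signal, and rises were 59 with the Gapdh ratio. The strain difference was called for 11 probe sets without a filter and with the stricter one, 226 with array weights, 72 with all arrays, 53 with tissue mass, 135 with the brown adipocyte score and 6964 with the hybridisation control. FBN aorta gave 86 calls with array weights, 12 with all arrays, 18 with the hybridisation control, 2 with the Gapdh ratio and 30 with the brown adipocyte score. BN mesenteric artery gave 377 without a filter, 1830 with array weights, 243 with all arrays and 374 without the 24-month arrays. The cause of these shifts was not tested.

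With each array left out in turn, rises ranged from 18 to 41, falls from 39 to 79, strain differences from 10 to 35, FBN calls from 0 to 10 and mesenteric calls from 232 to 580. Alternatives with the hybridisation control, the BN arrays with the poly-A covariate, and all mesenteric ones were chosen after seeing the data. Low signals limit Inhbb, Vps52 and Tnfaip8l2, since detection calls were not used here.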
